A study of Mus musculus with 6 samples.

Results

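CatSper is the calcium channel of the sperm tail, and the 8 genes described here encode subunits of it. They are Catsper1, Catsper3 and Catsper4, whose proteins line the pore, and Catsperb, Catsperd, Catspere1, Catsperg1 and Catsperg2, whose proteins sit around it as auxiliary subunits. Catsper2, the remaining pore subunit gene, was left out of the set, so the pore-forming genes below do not include it. They were chosen by name, through the gene name printed for each array probe or a synonym of it (Gm7068 for Catspere1), which gave 12 probes out of 41174 and 8 genes out of 27343 on the array. RNA from whole testes of Prss37KO mice was compared with RNA from testes of WT mice, 3 animals of each genotype, all C57BL/6 males aged 6 to 8 weeks, each on its own single-colour Agilent array. Prss37 is a testis gene of the trypsin-like serine protease family. The labels name no tissue-restricted driver for the knockout and give no account of which part of the gene is missing. One label field of the knockout samples gives Prss55 in place of Prss37, and groups were taken from the titles.

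The channel lets calcium into the flagellum when the cell interior turns alkaline, and this calcium drives the strong, asymmetric tail beat called hyperactivation that sperm need near the egg. Related pore subunits assemble around a central pore, and the auxiliary subunits form a large extracellular canopy over it. In mice, loss of Catsper1, Catsper3 or Catsper4 leaves males infertile although sperm are made, and loss of Catsperd has the same outcome. The transcripts come from germ cells, above all spermatids, so in whole testis a lower signal can mean fewer such cells or less RNA per cell, and these cannot be told apart.

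Each probe is a stretch of 60 bases, and those shown were picked because the results turn on them. The sequences are those of the scanner files, written 5′ to 3′. The first is the probe of the gene that passed the test, the second that of the pore subunit with the largest difference, the next pair read neighbouring stretches of Catsperb, and the last pair are listed for both gamma genes.

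Catspere1: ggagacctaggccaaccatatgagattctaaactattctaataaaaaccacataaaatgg
Catsper3: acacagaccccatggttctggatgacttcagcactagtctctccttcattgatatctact
Catsperb, brightest: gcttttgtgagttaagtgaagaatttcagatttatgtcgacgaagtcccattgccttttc
Catsperb, second: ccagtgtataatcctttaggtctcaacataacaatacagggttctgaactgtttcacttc
Catsperg1: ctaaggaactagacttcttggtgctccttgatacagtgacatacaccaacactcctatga
Catsperg2, dimmer: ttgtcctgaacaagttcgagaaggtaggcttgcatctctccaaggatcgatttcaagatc

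On mm9, the build of the scanner files, the Catspere1 probe lies at chr1:179881933-179881992 on the plus strand and the Catsper3 probe at chr13:55909439-55909498 on the plus strand. The Catsperb probes span chr12:102863480-102863791 and chr12:102862909-102863454 on the plus strand, stretches longer than 60 bases, so each bridges an exon junction. The Catsperg1 probe lies at chr7:29982064-29982123 and the dimmer Catsperg2 probe at chr7:30510284-30510343, both on the minus strand. Of the 3 gamma probes, these 2 carry RefSeq accessions of both Catsperg1 and Catsperg2 in the file, so their signal cannot be assigned to 1 of the 2 genes. The brighter Catsperg2 probe lists Catsperg2 alone.

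All 12 probes were well above background on all 6 arrays, none was saturated, and no array's value was dropped. Signals below are processed intensities scaled to a common 75th percentile across arrays. Signals of different probes are not compared, since each probe has its own brightness. The brightest probe stood for a gene in the test. Differences are on the log2 scale, Prss37KO minus WT, and adjusted p-values come from limma, adjusted by Benjamini-Hochberg across the 18975 genes tested, of which 2.46% were called at adjusted p under 0.05. As a check of the labels, the Prss37 probe read 67592, 73824 and 71562 in the knockout arrays, against 116135, 107860 and 124390 in the WT arrays. Whether it lies in the deleted part is unknown. The arrays sat on 2 slides scanned apart, with replicate 3 of either genotype on slide 2 and the other 4 arrays on slide 1.

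Of the 8 subunit genes, 1 was called, Catspere1, which was lower in the knockout, and 0 were called higher, against 1.25% of all genes lower and 1.21% higher. The 3 pore-forming genes had differences above 0 and the 5 auxiliary genes differences below 0, although only Catspere1 passed the test. The median over the 8 genes was -0.06, beside -0.002 over all genes tested. The 8 differences ran from -0.35 for Catspere1 to 0.25 for Catsper3, and their median size of 0.11 stood beside 0.09 over all genes. At an unadjusted p under 0.05, 3 of the 8 passed, Catsper3, Catsperb and Catspere1, where 23.9% of all genes did. The genotypes did not overlap in 4 of the 8, where 31.6% of all genes did not overlap.

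**Figure D1:**
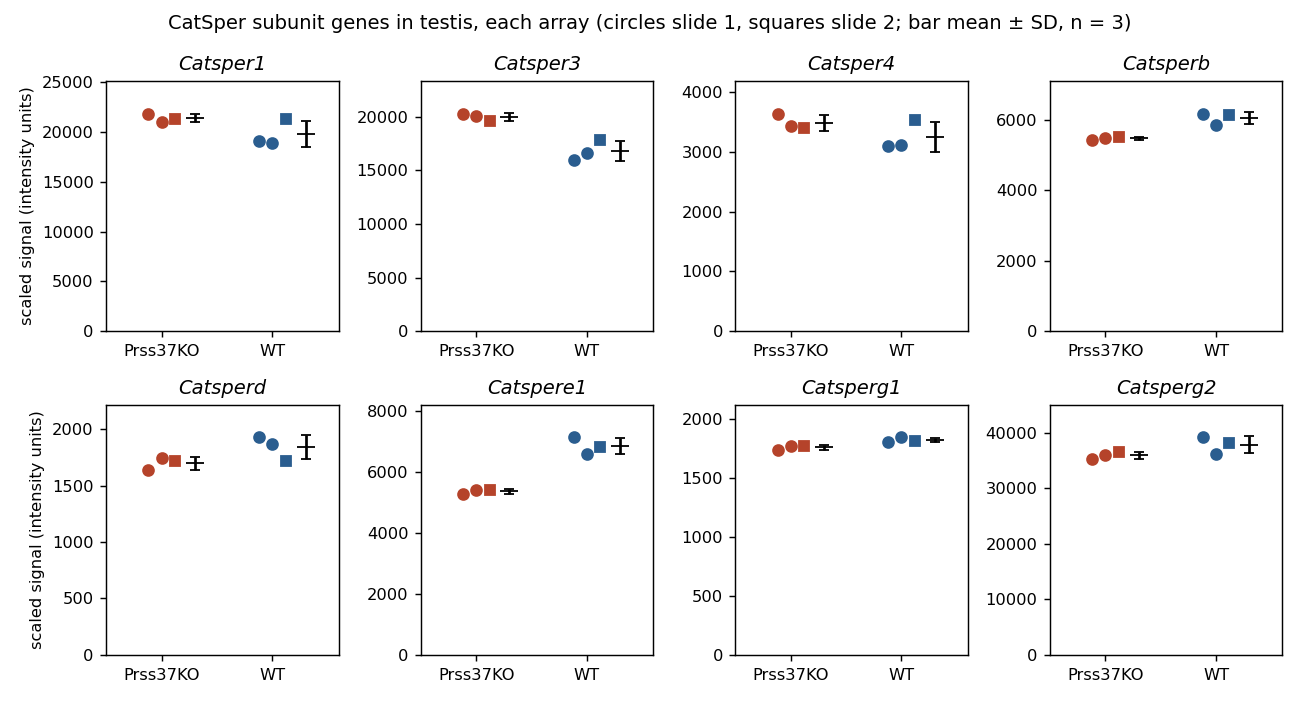
Scaled signal (intensity units, axis from 0) of the brightest probe of each of the 8 genes on each array, Prss37KO left and WT right. Circles are slide 1, squares slide 2, and bars show mean ± SD of 3 arrays. Catspere1 sits lower on all 3 knockout arrays than on any WT array, and the WT square of Catsper1 and Catsper4 reaches the knockout values.

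Among the pore-forming genes, Catsper3 had the largest difference. Its signal was 20282, 20047 and 19589 in Prss37KO testes, against 15937, 16631 and 17808 in WT testes. Every knockout value lay above every WT value. The mean was 19973 ± 353 in Prss37KO and 16792 ± 946 in WT (SD, n = 3 each), a log2 difference of 0.25 (SE 0.05, limma adjusted p = 0.064), which did not pass. Slide 1 gave 0.31 and slide 2 gave 0.14, and the adjusted p was 0.088 in the fit that blocked on slide. Catsper3 did pass when WT replicate 3, the highest of the WT arrays, was left out (0.29, adjusted p = 0.049), with array weights (adjusted p = 0.039) and with robust fitting on a variance trend (adjusted p = 0.026).

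Catsper1 encodes the pore subunit that carries a long histidine-rich tail inside the cell. Its brightest probe read 21863, 21022 and 21330 in Prss37KO testes, against 19152, 18936 and 21283 in WT testes. WT replicate 3 lay among the knockout values while the other two WT arrays lay below all of them. The log2 difference was 0.11 (95% interval -0.03 to 0.26, adjusted p = 0.29). It was 0.17 on slide 1 and 0.003 on slide 2. The second Catsper1 probe, which bridges another exon junction, read 14429, 13882 and 13981 in Prss37KO and 12628, 12500 and 13580 in WT. Here the genotypes did not overlap, and the difference was 0.13 (adjusted p = 0.20 among all probes tested singly, of which 1.04% were called and 30.4% did not overlap).

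Catsper4, a further pore subunit, read 3642, 3434 and 3395 in Prss37KO testes, against 3097, 3112 and 3541 in WT testes. The groups overlapped through WT replicate 3. The difference was 0.11 (95% interval -0.06 to 0.27, adjusted p = 0.40), with 0.19 on slide 1 and -0.06 on slide 2. For all 3 pore-forming genes the slide 2 pair thus gave a smaller value than slide 1, and for Catsper4 it had the other sign.

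Catspere1 encodes the epsilon subunit, an auxiliary protein of the canopy. It read 5267, 5414 and 5418 in Prss37KO testes, against 7142, 6601 and 6814 in WT testes. The 3 knockout arrays lay close together and below every WT array. The mean was 5367 ± 86.0 in Prss37KO and 6852 ± 272 in WT (SD, n = 3 each), 1.28-fold lower, a log2 difference of -0.35 (SE 0.05, 95% interval -0.46 to -0.24, limma adjusted p = 0.036). It stood at rank 119 of 18975 genes by p, and 168 of the 237 genes called lower fell by more. The probe was the only one for this gene.

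The Catspere1 difference lay between -0.38 and -0.32 in every setting tried, while its call did not hold. Settings that changed only the filter, the block or the variance model could not move the difference from -0.35. Other normalizations, array weights and leaving out arrays could. Slide 1 gave -0.36 and slide 2 gave -0.33, and blocking on slide raised the adjusted p to 0.062, where 0.416% of all genes were called. Leaving out Prss37KO replicate 1, 2 or 3 or WT replicate 1 also took the adjusted p above the threshold, to 0.11, 0.15, 0.14 and 0.11. Those fits called 49, 2, 14 and 6 of all genes, against 467 in the main fit. Without WT replicate 2 or 3 the adjusted p was 0.035 and 0.049, with 779 and 432 of all genes called. The call was also lost with normexp background correction (adjusted p = 0.069, 503 of all genes called). With no filter on dim probes it was lost too (adjusted p = 0.12, 8 of all genes called). Over the 20 alternative fits, 11 kept the call and 9 lost it. Catspere1 has a related neighbour on chromosome 1, Catspere2, for which no probe was named here, and whether its transcript binds the Catspere1 probe was not tested.

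**Figure D2:**
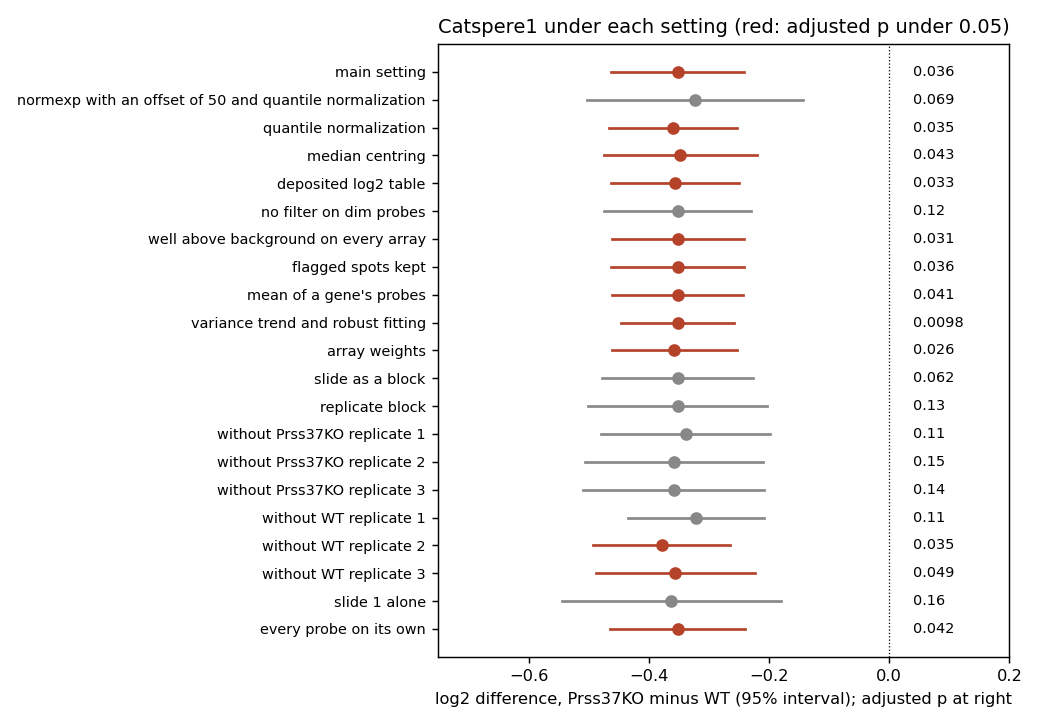
Catspere1 log2 difference, Prss37KO minus WT (x axis), with its 95% interval under each setting (y axis) and the adjusted p at the right, red where it was under 0.05. The values lie between -0.38 and -0.32, and where only the filter, block or variance model changed they could not move. The adjusted p ran from 0.0098 to 0.16.

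Catsperb encodes the beta subunit, another protein of the canopy. Its brightest probe read 5435, 5466 and 5510 in Prss37KO testes, against 6171, 5844 and 6133 in WT testes. The genotypes did not overlap, with a difference of -0.14 (SE 0.04, 95% interval -0.24 to -0.05, adjusted p = 0.11), which did not pass. The second probe read 2704, 2760 and 2747 in Prss37KO and 3051, 3006 and 3058 in WT, again with no overlap and a difference of -0.15 (adjusted p = 0.093 among all probes). These neighbouring probes gave nearly the same value, and so did both slides, with -0.14 on slide 1 and -0.15 on slide 2 for the brightest. The remaining Catsperb probe, taken from a neonatal thymus cDNA that lies upstream on the same strand at chr12:102788521-102788580 (mm9), was dim, at 52.9 to 75.7 in Prss37KO and 66.4 to 86.9 in WT, and its difference of -0.27 had a 95% interval from -0.65 to 0.11.

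Catsperd encodes the delta subunit, needed in mice for a stable channel. It read 1634, 1741 and 1719 in Prss37KO testes, against 1927, 1870 and 1721 in WT testes. WT replicate 3 lay within the knockout range and the genotypes overlapped. The difference was -0.11 (95% interval -0.25 to 0.03, adjusted p = 0.29), with -0.17 on slide 1 and -0.002 on slide 2.

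The gamma subunit is encoded in mice by the gene pair Catsperg1 and Catsperg2. The Catsperg1 probe read 1738, 1774 and 1772 in Prss37KO testes, against 1809, 1847 and 1818 in WT testes. The groups did not overlap, yet the difference was only -0.05 (95% interval -0.14 to 0.04, adjusted p = 0.45). The Catsperg2 probe that lists Catsperg2 alone read 35274, 35893 and 36523 in Prss37KO and 39150, 36188 and 38121 in WT. WT replicate 2 lay within the knockout range, and the difference was -0.07 (95% interval -0.19 to 0.04, adjusted p = 0.38). The dimmer probe listed for both gamma genes had a difference of 0.03 (95% interval -0.13 to 0.20), with 1506 to 1548 in Prss37KO inside the WT range of 1362 to 1608. With the mean of both probes Catsperg2 stood at -0.02. All gamma intervals include 0 and none reaches the -0.35 of Catspere1.

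**Figure D3:**
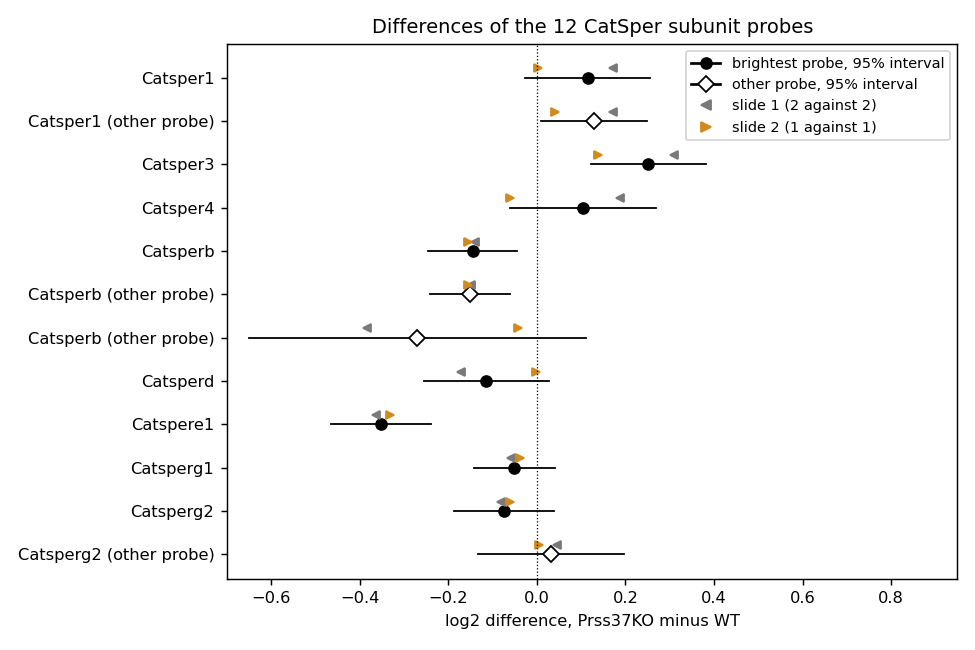
Log2 difference, Prss37KO minus WT (x axis), of each of the 12 probes tested singly, with 95% intervals; filled circles are the brightest probe of a gene, diamonds the others. Triangles give slide 1 and slide 2 values, which lie together for Catspere1 and for the 2 brighter Catsperb probes and apart for Catsper1, Catsper3, Catsper4 and Catsperd.

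The division by role was noted after the values had been seen, and no test was made of it. On each array the log2 values about a gene's own 6-array mean were averaged over the 3 pore-forming and over the 5 auxiliary genes. Catsperg1 counts among the 5 by a probe also listed for Catsperg2, so it was not read on its own. The pore-forming mean minus the auxiliary mean was 0.22, 0.13 and 0.11 in Prss37KO testes, against -0.25, -0.17 and -0.03 in WT testes. Since the split follows the signs of these same differences, the Prss37KO mean had to lie above 0 and the WT mean below it. These values therefore show only the spread among arrays, with WT replicate 3 nearest to 0. With Catspere1 left out the sides were fixed in the same way. The values were then 0.19, 0.10 and 0.09 in Prss37KO and -0.22, -0.15 and -0.003 in WT. By brightest probes or averaged probes, the 3 pore-forming genes stayed above 0 and the 5 auxiliary genes below 0 in every refit. These included quantile normalization, median centring, normexp and the deposited log2 table. Refits that changed only the filter, the block or the variance model could not move the differences. The exception was the slide 2 pair alone, where Catsper4 was at -0.06. Among other non-pore genes of the channel, Tmem249 was at 0.08, Efcab9 at 0.09, C2cd6 at 0.07 and Catsperz at -0.02, none of them called. Of the 6 partner genes tested, 5 lay above 0, opposite to the auxiliary direction. Over all genes tested 9354 were above 0 and 9621 below.

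**Figure D4:**
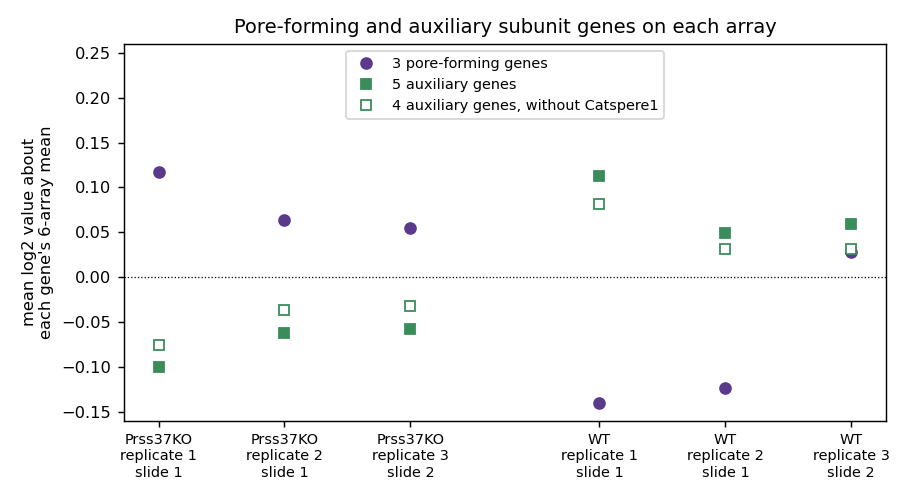
Mean log2 value about each gene's 6-array mean (y axis) of the pore-forming genes, the auxiliary genes, and the auxiliary genes without Catspere1, on each array (x axis, Prss37KO left). The pore-forming means lie at 0.12, 0.06 and 0.05 in Prss37KO and at -0.14, -0.12 and 0.03 in WT, so WT replicate 3 stands apart from the other WT arrays.

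Other genes of the channel were taken from a list of 8 described partners, of which 6 were on the array and all 6 were tested. None of the 6 was called by limma, higher or lower, and 1 had an unadjusted p under 0.05, where 23.9% of all genes did. Their median difference was 0.08, 5 lay above 0, and they ran from -0.02 to 0.19. Trim69, a ubiquitin ligase gene, read 55979, 60307 and 57408 in Prss37KO testes, against 51388, 50703 and 50613 in WT testes. The genotypes did not overlap, and the difference was 0.19 (adjusted p = 0.077), with 0.19 on slide 1 and 0.18 on slide 2. Over the alternative fits its adjusted p ran from 0.036, with robust fitting on a variance trend, to 0.48 with normexp, which lowered the difference to 0.10. Tmem249, which encodes the theta subunit of the channel, had 0.08 (95% interval -0.04 to 0.20, adjusted p = 0.39).

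A second list held 13 genes of the ion and signalling pathways that set the opening of CatSper in sperm, through membrane voltage, pH, calcium export and cAMP. Of these 12 were on the array and 11 were tested. Atp2b4, the calcium export gene of the list, was not on the array, so calcium export was not read. None of the 11 was called by limma in either direction, and the median was -0.02. For 1 the unadjusted p was under 0.05, where 23.9% of all genes had such a p. Abhd2, a lipid hydrolase that in human sperm links progesterone to CatSper opening, read 46852, 48242 and 45941 in Prss37KO testes, against 57205, 52418 and 58192 in WT testes by its brightest probe. The genotypes did not overlap and the difference was -0.25 (adjusted p = 0.068), with -0.20 on slide 1 and -0.34 on slide 2. It passed with quantile normalization (adjusted p = 0.044), with the deposited table (0.043), with array weights (0.047), with robust fitting on a variance trend (0.028) and without WT replicate 2 (0.043). It did not pass in the remaining fits, among them normexp (difference -0.18, adjusted p = 0.32) and the average of its probes (difference -0.08, adjusted p = 0.45). The other Abhd2 probes disagreed, a bright one at -0.20 and a dim one at 0.21, with 319 to 355 in Prss37KO and 264 to 313 in WT. The probes of Lrrc52 also disagreed. Its brightest was at -0.06 and a dim one at 0.85 (limma adjusted p = 0.074 among all probes). The dim one read 119 to 157 in Prss37KO and 59.4 to 92.2 in WT. Akap3, a scaffold gene of the fibrous sheath, had -0.12 (95% interval -0.25 to 0.003, adjusted p = 0.22).

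Markers of testis cell types were read beside these values. Of 45 tested, 0 were called by limma, where 2.46% of all genes were. An unadjusted p under 0.05 was found for 13, where 23.9% of all genes had one. Summed signals below weigh the brightest probes most. Round spermatid markers had 3 of 5 above 0 (median 0.05), with summed signals from 133368 to 137533 in Prss37KO and from 126795 to 134504 in WT. Elongating spermatid markers had 5 of 6 above 0 (median 0.09), with sums from 1775930 to 1993030 in Prss37KO and from 1774150 to 1896330 in WT. Spermatocyte markers had 3 of 6 above 0 (median 0.01), with sums from 60355 to 61806 in Prss37KO and from 59315 to 63601 in WT. Macrophage markers had 6 of 6 above 0 (median 0.20), with sums from 4176 to 4783 in Prss37KO and from 3707 to 3980 in WT, with no overlap. Sertoli cell markers had 4 of 5 above 0 (median 0.09), with sums from 117486 to 121199 in Prss37KO and from 106934 to 115716 in WT, also with no overlap. Clu carried most of that sum, and its own signals overlapped (93886 to 98363 in Prss37KO, 86985 to 95134 in WT). Singly, 2 of the 5 Sertoli markers did not overlap, where 31.6% of all genes did not. That share is for single genes, and none was taken for summed signals. Spermatogonia markers had 3 of 4 above 0 (median 0.03), while their sums, from 7908 to 8087 in Prss37KO and from 9421 to 11136 in WT, did not overlap. Stra8, a gene of the entry into meiosis, had a log2 difference of -0.42 (adjusted p = 0.058), and the other spermatogonia markers lay between 0.02 and 0.09. Peritubular markers had 3 of 4 below 0 (median -0.09), with sums from 21546 to 24147 in Prss37KO and from 24126 to 24882 in WT. Leydig cell markers ran from -0.25 to 0.31 (median 0.02), with sums from 31645 to 33219 in Prss37KO inside the WT range of 28709 to 36787. Endothelial markers had a median of -0.004, with sums from 797 to 974 in Prss37KO and from 832 to 931 in WT. The part of these cell types in the subunit values was not tested. Of 6 Leydig markers 5 were on the array, and these 5 were tested. Of 4 endothelial markers 3 were bright enough to be tested, and 1 of 4 epididymis markers was, at -0.03.

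The 3 genes outside the family whose normalized values were most like those of Catspere1 over the 6 arrays were Ankrd23 (Pearson r = 0.998), a transcript without a gene symbol (0.997) and Asb1 (0.996). Their log2 differences were -0.21 (adjusted p = 0.051), -0.25 (0.046) and -0.36 (0.035). Likeness was taken with the genotype difference left in the values. A lower value in the knockout and a small p were thus all but fixed by the choice. With probes averaged per gene Asb1 stood at -0.17 (adjusted p = 0.13). Over the refits the adjusted p ran from 0.024 to 0.19 for Ankrd23, from 0.027 to 0.18 for the unnamed transcript and from 0.0079 to 0.15 for Asb1. All points share the same 6 arrays, and 28 of the 18965 genes compared had r over 0.99, so this is a description of 6 points.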

How the data were processed

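Total RNA was amplified, labelled with Cy3 and hybridised, per the labels' protocols. The deposited files hold intensity values, 1 scanner output for each array, from Agilent Feature Extraction 10.7.3.1 (10.7 per the submitters' processing notes), background already removed per the file headers. Flags, another kind of value in the deposited files, were used as they stood. The deposited log2 values had the same median in every column (7.72). Once sorted, each column differed from that of Prss37KO replicate 1 by at most 0.00125, as quantile normalization would leave them. The deposited values correlated with the log2 processed signal at r of at least 0.99987 across probes. The labels name no normalization step for them.

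Control spots and 86 to 159 spots per array with an outlier flag were left out. From 69.2% to 71.4% of spots were well above background, and the 75th percentile of the signal lay between 1550 and 1707. The log2 signal minus that percentile was averaged where a probe had several spots. Tested were 28301 probes with 2 or more values per genotype that were well above background throughout 1 genotype or both. Gene names came from a GRCm38.p6 RefSeq table, by accession without version (27668 probes), symbol (5589) or synonym (471), or stayed as in the file (7446). The fit used limma 3.58.1 in R 4.3.3 (lmFit, eBayes) and was tested on simulated data. The design text gives n as mice. The number of arrays limits the precision. Same-numbered arrays deviated together at r of -0.03, -0.03 and 0.16, the last being the slide 2 pair. Differently numbered arrays gave r from -0.14 to 0.14. The replicate numbers were not taken as pairs in the main fit.

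Alternatives were the deposited table, median centring, quantile normalization, normexp (offset 50), other filters and probe rules, flagged spots kept, array weights, a variance trend with robust fitting, slide or replicate number as a block, single slides, each array left out and adjusted p under 0.1. Named were all subunit genes, the called or else the 2 lowest-p genes of each further list, and the genes most like a called subunit gene. The members and lists were chosen with earlier results of these data known.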

Additional observations from a re-analysis of the deposited data

How the results depend on the processing

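No named gene's difference changed sign in any refit of limma, and Catsper4 did on the slide 2 pair alone, which has no test. Refits that changed only the block or the variance model could not move a difference. The count of 1 called subunit gene became 0 with normexp, no filter on dim probes, the slide as a block, the replicate block and slide 1 alone, and 2 with robust fitting on a variance trend, with array weights and at adjusted p under 0.1. It was 0 to 2 with an array left out, 0 without any 1 of the knockout arrays or WT replicate 1, and 2 without WT replicate 3. The median over the subunit genes was -0.063, and averaging a gene's probes gave -0.036. The partner count of 0 became 1 with robust fitting on a variance trend and at adjusted p under 0.1. The regulator count of 0 became 1 with quantile normalization, the deposited table, robust fitting on a variance trend, array weights and adjusted p under 0.1, and was 0 to 1 with an array left out, 1 without WT replicate 2. The 467 genes called in all became 8 with no filter, 275 on averaging a gene's probes, 293 with every probe on its own, 1270 with robust fitting on a variance trend, 1173 with array weights, 79 with the slide as a block, 2 with the replicate block, 27 on slide 1 alone, where fewer arrays are left, 1867 at adjusted p under 0.1, and 2 to 779 with an array left out. Replicate 3 of either genotype is also slide 2, so the replicate block partly codes the slide. The cause of the shifts was not tested.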

Other observations

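By their brightest probes, the subunit genes varied less among the knockout arrays than among the WT arrays. The range of that probe over 3 arrays was smaller in Prss37KO in 8 of 8 genes. The median log2 range was 0.05 in Prss37KO and 0.14 in WT. For Catsperg1 the ranges were nearly equal, at 0.029 in Prss37KO and 0.030 in WT. The 8 genes were read on the same arrays, so they do not count as independent. Over all genes tested the range was smaller in Prss37KO in 68.2%, with medians of 0.10 in Prss37KO and 0.16 in WT. Probes that did not stand for a gene were divided. The second Catsperb probe had a larger range in Prss37KO (0.030) than in WT (0.025). So did the dim Catsperb probe (0.52 in Prss37KO, 0.39 in WT). The second Catsper1 probe and the dimmer Catsperg2 probe had the smaller range in Prss37KO. Among the WT arrays, replicate 3 gave the highest value of Catsper1, Catsper3 and Catsper4 and the lowest of Catsperd, and it is the WT array of slide 2.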
